A study of Mus musculus with 20 samples.

Results

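The comparison described here sets late 8-cell mouse embryos given P300 siRNA together with NaCr against late 8-cell embryos given P300 siRNA alone. It rests on 4 of the 20 RNA-seq libraries of the series, 2 per group, and on all 16603 genes with enough counts to test, out of 25208 in the deposited count table. The libraries were taken by their labels, and every library of both groups was used. The study knocked down p300 in zygotes cultured in KSOM medium and sequenced embryos at several stages with the Smart-seq2 protocol. At the late 8-cell stage it added a pair of rescue groups to the knockdown, 1 with NaCr and 1 with I1394G. The NaCr group has the genotype label P300 knockdown NaCr rescue, the I1394G group P300 knockdown I1394G rescue, the siRNA group P300 knockdown and the controls WT, and all were zygotes grown in the same medium. NaCr is read here as sodium crotonate and I1394G as a point mutant of p300, since neither is spelled out in the labels. Strain, age of the females, dose of NaCr and number of embryos per library were not given in the sources used here. Whether replicates came from separate collections was not given either, so the spread between them may be technical. The p-values measure that spread pooled over all 20 libraries of the series, in 10 groups of 2 that include other stages.

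The acyltransferase p300, encoded by Ep300, transfers acetyl groups and also longer acyl groups such as crotonyl to histone lysines, marks that sit at active promoters and enhancers. Cells turn crotonate into crotonyl-CoA, the donor of histone crotonylation, so that added crotonate raises the mark. At the late 8-cell stage the mouse embryo compacts, its outer surfaces polarise, and genes of the pluripotent inner cells and of trophectoderm, the future placental epithelium, are already transcribed.

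Total counts were 17508228 and 9291934 in NaCr replicates 1 and 2, against 3202332 and 20252948 in siRNA replicates 1 and 2; the I1394G and control libraries of the stage held 21150124 to 24785201. Reduced to the depth of siRNA replicate 1, the NaCr libraries had counts for 14675 and 14648 genes, the I1394G libraries for 15104 and 14999, the siRNA libraries for 15920 and 16801, and the controls for 14477 and 14422. More genes were thus seen in the siRNA libraries than in any other late 8-cell group at the same depth, and siRNA replicate 1 was the shallowest library of the series. Levels below are CPM, read counts scaled to a common library size with TMM factors, always replicate 1 and then replicate 2. On log2(CPM + 1) the siRNA libraries correlated at 0.966, less closely than the NaCr (0.988), I1394G (0.9915) and control pairs (0.9938). Tests below pool the spread over all groups of the series, which may understate that of the siRNA libraries. In these bulk libraries fewer cells of a type and less RNA per cell cannot be told apart.

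Ep300, the siRNA target, held 11.5 and 12.6 CPM in the NaCr libraries, 16.2 and 13.2 CPM in the siRNA libraries, and 22.02 and 15.2 CPM in controls. The NaCr libraries lay below both siRNA libraries, and the log2 fold change of NaCr over siRNA was -0.27 ± 0.37 (SE, adjusted p = 0.665). The siRNA libraries did not pass the test against controls either (-0.36 ± 0.37, adjusted p = 0.499). At this stage the transcript therefore gives no check of the knockdown label beyond these values.

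NaCr embryos differed from siRNA embryos in 2544 of 16603 genes, a background of 15.3% (edgeR's quasi-likelihood test, Benjamini-Hochberg adjusted p under 0.05, referred to below as called). Of these, 1456 genes, 8.77% of those tested, were higher with NaCr and 1088 genes, 6.55%, were lower. Counts of called members in the gene lists below are set against these shares, which depend on level. A mean of 10 CPM or more in the higher group was reached by 96.9% of higher calls and 66.7% of lower calls. Of all tested genes 49% reached it. For lists of abundant genes the shares over all genes are therefore a low mark, mainly for rises, and the part of level was not tested. Levels that are not scaled by length differed between these sets. Genes called higher had a median level of 129.5 CPM in NaCr libraries, against 62.1 CPM in siRNA libraries, and their median log2 fold change was 1.10. Genes called lower had a median level of 5.52 CPM with NaCr, against 19.8 CPM with siRNA, and their median log2 fold change was -1.73. Of the lower genes, 53 had no count in either NaCr library, while 5 of the higher genes had none in either siRNA library. Both libraries of one group lay beyond both of the other for all 1456 higher genes and for 1080 of the 1088 lower genes. Over all tested genes, 27.6% had both NaCr libraries above both siRNA libraries and 31.7% had both below.

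The split between directions depends on the scaling. On log2(FPKM + 1) with limma, where no TMM factors were applied, 462 genes were higher and 2560 lower. Thus 15.3% of calls were higher on FPKM and 57.2% on counts with TMM factors. Of 174 called genes chosen for naming, 47 lost their calls on log2(FPKM + 1), among them Ly6a, Tead4, Hdac1, Aqp9, F11r and Id3. Those factors were 0.8655 and 0.8657 in the NaCr libraries, against 1.177 and 1.209 in the siRNA libraries. The FPKM scale moved the median of all genes by -0.36, and the part of the TMM factors in this shift was not tested. Fitted on the 4 libraries alone, 46.8% of 2314 calls were higher. With single libraries left out the total was 1310 genes (NaCr replicate 1), 912 (NaCr replicate 2), 1455 (siRNA replicate 1) and 2282 (siRNA replicate 2), of which 63.5%, 70.2%, 59.5% and 63.9% were higher. In those fits the lone library was assumed to vary as the other groups did.

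**Figure D1:**
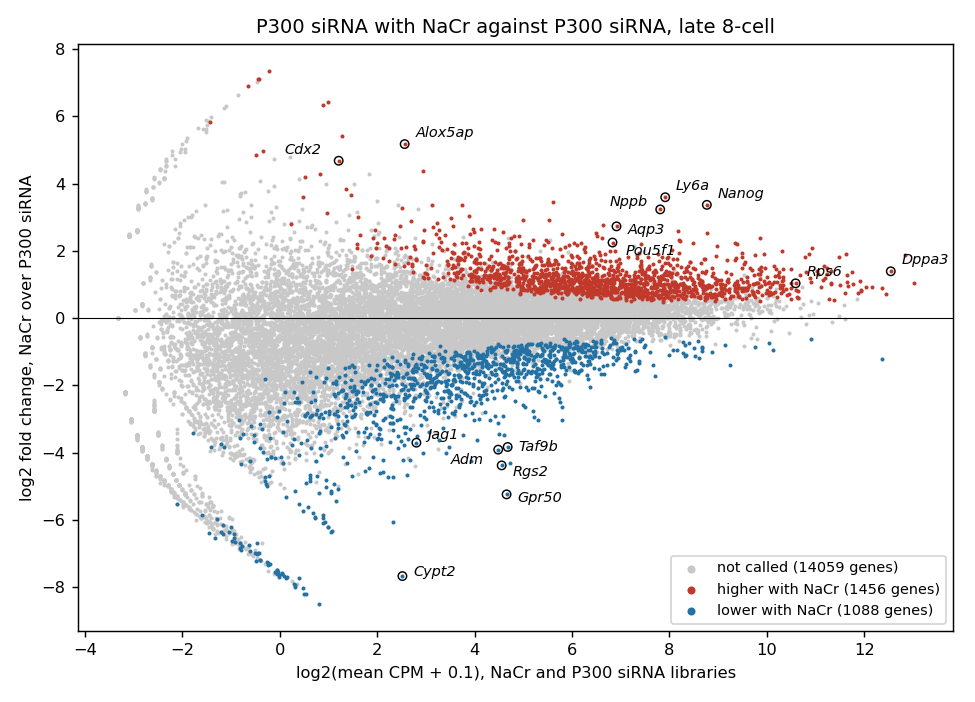
Log2 fold change of NaCr over P300 siRNA (vertical axis) against the log2 of the mean CPM of the 4 libraries plus 0.1 (horizontal axis), 1 point per gene, with called genes in red (1456 higher) and blue (1088 lower) and some named genes circled. Red points lie mainly at high CPM and blue points at low CPM, and the lower genes reach larger fold changes.

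The 15 largest rises among genes with a mean of 10 CPM or more with NaCr had log2 fold changes of 2.77 to 5.17. Nanog, a core pluripotency transcription factor, held 769.7 and 822 CPM in NaCr libraries, against 67.7 and 86.0 CPM in siRNA libraries and 747 and 699 CPM in controls. Both NaCr libraries stood far above both siRNA libraries and slightly above the controls, with a log2 fold change of 3.37 ± 0.53 over siRNA (adjusted p = 5.38e-04). Ly6a, which encodes the surface protein Sca-1, held 393 and 498 CPM with NaCr, against 35.8 and 37.9 CPM with siRNA and 728 and 879.8 CPM in controls (3.59 ± 0.52, adjusted p = 3.19e-04). Here the NaCr level was well above siRNA and below both controls; Ly6 genes are close copies of each other, so its count is uncertain. Slc5a11, a sodium-coupled inositol transporter, held 98.7 and 81.1 CPM with NaCr, against 6.37 and 9.51 CPM with siRNA and 138 and 121 CPM in controls (3.45 ± 0.41, adjusted p = 1.14e-04).

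Nppb, which encodes B-type natriuretic peptide, stood out by its controls. It held 340.5 and 474 CPM with NaCr, against 17.0 and 66.9 CPM with siRNA and 87.0 and 90.3 CPM in controls, so that NaCr exceeded both other groups without overlap. Its log2 fold change was 3.23 ± 0.56 over siRNA (adjusted p = 0.00102) and 2.199 ± 0.53 over controls (adjusted p = 0.0446), and the I1394G libraries held 351 and 303 CPM. Kank4, a cortical scaffold protein, also had NaCr levels above controls, 88.4 and 76.7 CPM against 5.84 and 14.4 CPM with siRNA and 33.1 and 58.8 CPM in controls (2.92 ± 0.51 over siRNA, adjusted p = 0.00101). For Kank4 the difference from controls missed the threshold (0.85 ± 0.46, adjusted p = 0.454).

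The remaining large rises were of genes that the siRNA libraries held at low levels. Alox5ap, the activating protein of 5-lipoxygenase in leukotriene synthesis, held 14.1 and 8.70 CPM with NaCr, against 0 and 0.408 CPM with siRNA and 8.72 and 20.2 CPM in controls (5.17 ± 1.14, adjusted p = 0.00523). Siglecg, a sialic acid-binding inhibitory receptor, held 15.2 and 14.2 CPM with NaCr, against 0.265 and 0.857 CPM with siRNA and 40.9 and 42.1 CPM in controls (4.37 ± 1.24, adjusted p = 0.0238). Both were nearly absent from the siRNA libraries, and Siglecg stayed below controls. The acid sphingomyelinase Smpd1 (log2 fold change 2.77), the chloride channel protein Clic3 (2.90), the Myc-family gene Bmyc (3.35), the guanine nucleotide exchange factor Vav1 (2.82), the regulatory PI3-kinase subunit Pik3r6 (3.37), the epithelial trafficking GTPase Rab17 (3.27), tyrosine aminotransferase Tat (3.04) and the aminopeptidase Enpep (2.99) complete the 15. All 15 had both NaCr libraries above both siRNA libraries, which the naming rule required. Calls were lost for Siglecg and Rab17 without any single library of the 4 (adjusted p up to 0.120 and 0.179), for Tat without NaCr replicate 1 or siRNA replicate 2 (up to 0.105), for Enpep without NaCr replicate 1 (0.0556) and for Pik3r6 without siRNA replicate 2 (0.0532).

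The largest falls were genes that control embryos barely express. Gpr50, an orphan receptor related to melatonin receptors, held 1.25 and 1.37 CPM with NaCr, against 25.5 and 72.4 CPM with siRNA and 2.16 and 0.386 CPM in controls. The NaCr libraries lay far below both siRNA libraries and within the range of controls, with a log2 fold change of -5.24 ± 0.68 over siRNA (adjusted p = 1.54e-04). Rgs2, a brake on G protein signalling, held 2.18 and 2.11 CPM with NaCr, against 41.4 and 48.0 CPM with siRNA and 1.03 and 0.937 CPM in controls (-4.38 ± 0.69, adjusted p = 5.86e-04). Adm, the vasodilator peptide adrenomedullin, held 2.44 and 3.11 CPM with NaCr, against 58.1 and 25.5 CPM with siRNA and 3.13 and 4.63 CPM in controls (-3.91 ± 0.51, adjusted p = 1.61e-04). Jag1, a Notch ligand, held 0.858 and 1.12 CPM with NaCr, against 13.8 and 11.8 CPM with siRNA and 1.90 and 0.551 CPM in controls (-3.70 ± 0.57, adjusted p = 5.09e-04). In each of these the siRNA libraries alone were high.

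Taf9b, a paralogue of the TFIID subunit Taf9, fell with NaCr without reaching control levels. It held 4.03 and 2.49 CPM with NaCr, against 54.7 and 40.9 CPM with siRNA and 0.667 and 0.331 CPM in controls, in 3 levels that did not overlap. Its log2 fold change was -3.83 ± 0.56 over siRNA (adjusted p = 3.52e-04) and 2.71 ± 0.66 over controls (adjusted p = 0.0446). The calcium buffer Calb1 (log2 fold change -4.23) and the galactosyltransferase of myelin lipids Ugt8a (-3.84) also fell. Cypt2, a spermatid cysteine-rich protein gene, had 1 count in the NaCr libraries together against 372 in the siRNA libraries, a pooled ratio of siRNA to NaCr of 305 with a 95% counting interval of 54.5 to 12091. Other falls were Tcstv1 (-4.65), a gene of the 2-cell transcript cluster, the PWWP-domain gene Pwwp3b (-4.30), the zinc finger gene Zfp711 (-4.25), the Wnt pathway regulator Amer1 (-4.02) and the Prame-like gene Pramel3 (-3.76). Zfp711 lost its call without either NaCr library or siRNA replicate 2 (adjusted p up to 0.171). Pramel3 lost it without either NaCr library (up to 0.0638), Tcstv1 and Cypt2 without NaCr replicate 1 (0.119 and 0.0633), and Pwwp3b and Amer1 without NaCr replicate 2 (0.0619 and 0.0681).

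**Figure D2:**
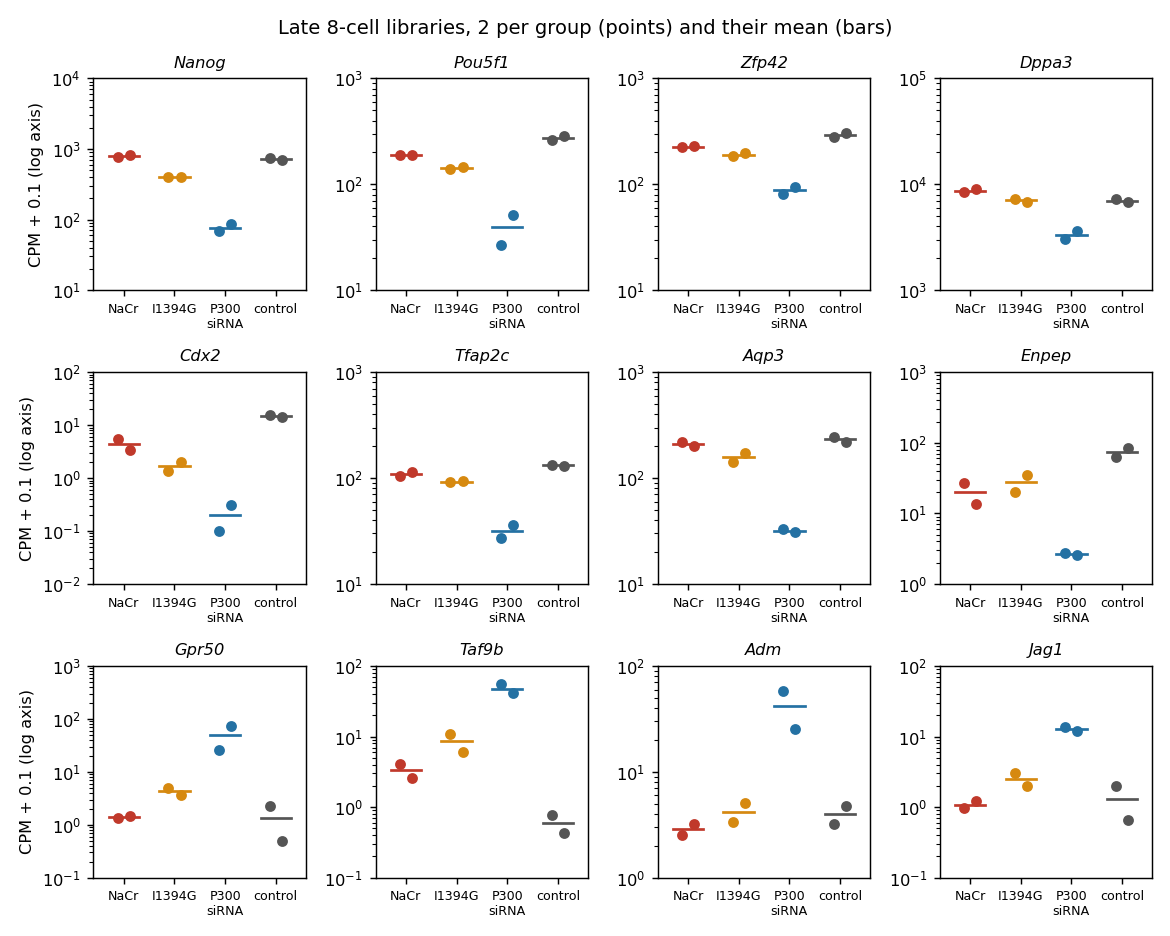
CPM plus 0.1 of 12 genes on logarithmic axes in the 8 late 8-cell libraries, with 2 points per group (NaCr, I1394G, P300 siRNA, control) and a bar at their mean. In the upper 2 rows, from Nanog to Enpep, both NaCr points lie above both P300 siRNA points, and in the lowest row (Gpr50, Taf9b, Adm and Jag1) both lie below.

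Pluripotency factors were higher with NaCr for 18 of 30 tested genes and lower for 1, with a median log2 fold change of 1.17 against -0.13 over all genes. On FPKM 6 were higher and 2 lower, with a median of 0.645. Dppa3 (Stella), a maternal factor that guards DNA methylation, held 8365 and 8972 CPM with NaCr, against 3008 and 3599 CPM with siRNA and 7262 and 6732 CPM in controls (1.39 ± 0.16, adjusted p = 8.02e-05). Fbxo15, an embryonic F-box protein gene, held 4778 and 4361 CPM with NaCr, against 2071 and 1653 CPM with siRNA (1.30 ± 0.17, adjusted p = 1.74e-04). Zfp42 (Rex1), a zinc finger gene of pluripotent cells, held 225 and 229 CPM with NaCr, against 80.4 and 94.7 CPM with siRNA (1.37 ± 0.21, adjusted p = 5.00e-04). In all 3 the NaCr libraries lay clear of the siRNA libraries.

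Pou5f1 (Oct4), the POU factor required for the inner cell mass, held 189 and 188 CPM with NaCr, against 26.8 and 51.2 CPM with siRNA and 265 and 287 CPM in controls. Its NaCr libraries agreed closely and lay between the other groups, with a log2 fold change of 2.25 ± 0.44 over siRNA (adjusted p = 0.00256), which did not pass on the FPKM scale. Sox2, its partner at shared enhancers, was near the limit of detection, with 0.0660 and 0 CPM with NaCr, against 0.265 and 0.367 CPM with siRNA and 0 and 0.441 CPM in controls. These were 1 and 10 counts per group and the difference did not pass the test (adjusted p = 0.327). Without a single library 12 to 14 pluripotency factors rose, 12 of them without NaCr replicate 2.

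Trophectoderm genes were higher with NaCr for 9 of 30 tested genes and lower for 2, with a median of 0.56. On FPKM the balance turned, with 6 higher, 8 lower and a median of 0.10. Cdx2, the caudal homeobox factor that specifies trophectoderm, held 5.28 and 3.36 CPM with NaCr, against 0 and 0.204 CPM with siRNA and 15.7 and 13.9 CPM in controls. The 3 groups did not overlap, and NaCr stood between nearly none and the control level. The log2 fold change over siRNA, where 5 counts were seen, was 4.68 ± 1.25 (adjusted p = 0.0178), and the call was lost without NaCr replicate 1 or either siRNA library (adjusted p up to 0.0860).

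Aqp3, a glycerol and water channel of the outer cells, held 219 and 200.2 CPM with NaCr, against 32.6 and 30.7 CPM with siRNA and 245 and 219 CPM in controls (2.73 ± 0.32, adjusted p = 1.14e-04). Tfap2c, an AP-2 factor upstream of trophectoderm and polarity genes, held 105 and 114 CPM with NaCr, against 26.8 and 36.0 CPM with siRNA and 134 and 129 CPM in controls (1.79 ± 0.23, adjusted p = 1.37e-04). Elf3, an epithelial ETS factor, held 108 and 79.8 CPM with NaCr, against 17.2 and 25.3 CPM with siRNA and 160.0 and 198 CPM in controls (2.11 ± 0.38, adjusted p = 0.00122). In these genes both NaCr libraries exceeded both siRNA libraries, near the control level for Aqp3 and below it for Elf3. Esx1, a placental homeobox gene, was the clearest fall, with 1.91 and 3.36 CPM with NaCr, against 6.37 and 14.7 CPM with siRNA and 1.13 and 0.551 CPM in controls (-2.11 ± 0.55, adjusted p = 0.0147). It lost its call without NaCr replicate 1 or siRNA replicate 2 (adjusted p up to 0.250), and the count of trophectoderm rises fell to 5 without NaCr replicate 1 and to 6 without either siRNA library.

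Of 20 primitive endoderm genes, 2 rose (10%) and none fell, against 8.77% and 6.55% over all genes tested. Their median was -0.64, and on FPKM 1 rose and 2 fell. The lineage factor Gata6 held 111 and 90.4 CPM with NaCr, against 22.3 and 22.1 CPM with siRNA and 143 and 111 CPM in controls (2.18 ± 0.57, adjusted p = 0.0143). The endocytic adaptor Dab2 held 169.9 and 151 CPM with NaCr, against 50.4 and 35.6 CPM with siRNA and 336 and 368 CPM in controls (1.92 ± 0.55, adjusted p = 0.0248). NaCr libraries were high in both, and for Dab2 still below controls. Gata6 lost its call without NaCr replicate 1 or either siRNA library (adjusted p up to 0.0828), and Dab2 without any single library of the 4 (up to 0.150).

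Genes of cell polarity and junctions rose in 7 and fell in 2 of 41, with a median of 0.23; on FPKM 1 rose, 10 fell and the median was -0.15. F11r, the junctional adhesion molecule JAM-A, held 427 and 562 CPM with NaCr, against 193 and 198 CPM with siRNA (1.34 ± 0.21, adjusted p = 5.09e-04). Llgl1, a basolateral polarity protein (1.43 ± 0.27, adjusted p = 0.00190), and Ocln, the tight-junction protein occludin (1.49 ± 0.31, adjusted p = 0.00348), rose as well. The claudin Cldn3 fell, with 5.61 and 4.102 CPM with NaCr, against 16.2 and 29.1 CPM with siRNA and 1.33 and 2.04 CPM in controls (-2.23 ± 0.62, adjusted p = 0.0201; up to 0.176 without either NaCr library or siRNA replicate 2). Without NaCr replicate 2, 4 members rose.

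In the Hippo pathway, which restrains the coactivator Yap1 in inner cells, 1 of 25 genes rose (4%) and 3 fell (12%). The shares over all genes tested were 8.77% and 6.55%, and on FPKM none of the list rose and 4 fell. On counts the rise was Tead4, the DNA-binding partner of Yap1 needed for trophectoderm, with 94.2 and 106 CPM with NaCr, against 28.4 and 42.9 CPM with siRNA and 122 and 96.7 CPM in controls (1.47 ± 0.28, adjusted p = 0.00186). Tead4 did not pass on the FPKM scale. The falls were Limd1, an inhibitor of the Lats kinases (-1.79), and Mob1b (-1.62) and Mob1a (-0.99), which activate them. All 3 falls lost their calls without NaCr replicate 2, and some also without another library (adjusted p up to 0.0588, 0.0731 and 0.144). Among aquaporins and sodium pump subunits, 2 of 13 rose (on FPKM 1 rose and 2 fell), Aqp3 and the water and glycerol channel Aqp9 (1.09 ± 0.17, adjusted p = 5.38e-04), and the sodium pump subunit Atp1b1 fell, with 27.3 and 25.0 CPM with NaCr, against 88.4 and 52.0 CPM with siRNA (-1.41 ± 0.31, adjusted p = 0.00541; up to 0.0826 without NaCr replicate 2 or siRNA replicate 1).

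Ribosomal protein genes formed the most uniform list: 57 of 81 tested cytosolic ribosomal proteins rose with NaCr, none fell, and all 81 had a positive fold change, with a median of 0.94. Rpl5, a large-subunit protein that carries 5S RNA, held 2579 and 2704 CPM with NaCr, against 1115 and 1201 CPM with siRNA and 2749 and 2714 CPM in controls (1.19 ± 0.17, adjusted p = 3.19e-04). Rps6, the small-subunit protein phosphorylated by S6 kinase, held 2041 and 2109.9 CPM with NaCr, against 1075 and 953 CPM with siRNA and 1972 and 1862 CPM in controls (1.03 ± 0.16, adjusted p = 5.91e-04). The NaCr libraries sat at the control level for both, at about the same distance from siRNA. Rps3 (1.36) and Rpl4 (0.99) followed in order of adjusted p. Ribosomal proteins have many processed pseudogenes, so the share of reads that each gene received is uncertain. With NaCr replicate 1 or 2 left out 35 or 21 rose, and with siRNA replicate 1 or 2 left out 20 or 73; on FPKM it was 9, with a median of 0.57.

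In 3 other lists of housekeeping machinery most calls on counts were rises, while on FPKM rises were few. Ribosome biogenesis factors rose in 25 of 86 and fell in none (median 0.33; on FPKM 3 rose, 6 fell and the median was -0.12), among them the helicase Ddx56 (1.23 ± 0.15, adjusted p = 1.23e-04), the processome proteins Tbl3 (1.37) and Nol11 (0.98), and the RNA polymerase I and III subunit Polr1c (1.09). Mitochondrial ribosomal proteins rose in 26 of 78 and fell in 1 (median 0.56; on FPKM 4 rose and 2 fell), with Mrpl17 at 1.24, Mrps2 at 1.04 and Mrpl11 at 1.26, and Mrpl16 as the fall at -0.78. The respiratory chain rose in 11 of 79 and fell in none (median 0.55; on FPKM 1 rose and none fell), including Uqcrc1 (0.98), Ndufa9 (0.67) and Ndufa3 (1.79). The shares that rose were 29.1%, 33.3% and 13.9% in the order given, against 8.77% over all genes tested. Of genes at 10 CPM or more, 23.6% rose in the shortest bin by transcript length and 8.21% in the longest, as described below. The share of the respiratory chain lay within that range. The counts of these lists rested on single libraries. Rises of biogenesis factors numbered 10 without NaCr replicate 2; those of mitochondrial ribosomal proteins 7, 5 and 5 without NaCr replicate 1, NaCr replicate 2 and siRNA replicate 1; and those of the respiratory chain 1, 1, 2 and 44 without NaCr replicates 1 and 2 and siRNA replicates 1 and 2. Mrpl16, Ndufa9 and Ndufa3 lost their calls without one library or another (adjusted p up to 0.184, 0.0908 and 0.126), each of them without either NaCr library and also without 1 of the siRNA libraries.

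Proteasome genes rose in 15 of 47 and fell in 1 (median 0.52), whereas on FPKM 2 rose, 3 fell and the median was 0.08. The regulatory particle subunits Psmd8 (1.06), Psmd3 (1.10) and Psmd2 (1.08) rose, and the alternative activator Psme4 fell, with 94.4 and 62.2 CPM with NaCr, against 352 and 119.7 CPM with siRNA (-1.58 ± 0.36, adjusted p = 0.00612). Heat shock proteins and chaperonins rose in 9 of 30 and fell in 2 (median 0.23; on FPKM 2 rose, 2 fell and the median was -0.14), with the chaperonin subunit Cct7 (1.30 ± 0.16, adjusted p = 1.23e-04), the Hsp70 partner Dnaja1 (1.12) and Hsp90ab1 (0.91) higher and the co-chaperone Dnajb4 lower (-2.02). Autophagy and lysosome genes rose in 14 of 40 and fell in 3 (median 0.42; on FPKM 3 rose, 8 fell and the median was -0.02). The autophagosome protein Gabarapl2 held 3127 and 2959.8 CPM with NaCr, against 1165 and 1135 CPM with siRNA (1.404 ± 0.20, adjusted p = 3.38e-04), and the conjugating enzyme Atg7 (1.72) and the saposin precursor Psap (1.45) also rose, while the protease Ctsl fell (-0.74). Psme4 and Dnajb4 lost their calls without NaCr replicate 2 or siRNA replicate 1 (adjusted p up to 0.202 and 0.127), and Ctsl without NaCr replicate 1 or siRNA replicate 1 (0.174). Rises numbered 7 without either NaCr library for the proteasome, 5 and 4 for chaperones, and 8 for autophagy without NaCr replicate 2; falls of autophagy genes numbered 0 to 2 with a library left out.

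DNA replication genes rose in 17 of 45 and fell in 1 (median 0.50), whereas on FPKM 4 rose, 4 fell and the median was 0.06. Mcm3, a subunit of the replicative helicase, held 146 and 152 CPM with NaCr, against 49.1 and 57.0 CPM with siRNA and 170.5 and 162 CPM in controls (1.48 ± 0.21, adjusted p = 2.91e-04). Thymidine kinase Tk1 (1.23) and the initiation factor Mcm10 (1.11) rose, and Uhrf1, which recruits the maintenance DNA methyltransferase, fell (-0.97, adjusted p = 0.0371; up to 0.319 without either NaCr library or siRNA replicate 2). Mitosis and spindle genes rose in 5 of 48 (10.4%) and fell in 1 (2.08%), against 8.77% and 6.55% over all genes tested. Their median was 0.16, and on FPKM 1 rose, 8 fell and the median was -0.28. The mitotic kinases Cdk1 (1.10) and Aurkc (1.57) and the kinesin Kif20a (0.96) were higher, and the kinetochore protein Cenpf was lower (-0.73). Rises of replication genes numbered 10, 8 and 7 without NaCr replicate 1, NaCr replicate 2 and siRNA replicate 1, and rises of mitosis genes 1 and 3 without NaCr replicate 2 and siRNA replicate 1. Kif20a and Aurkc lost their calls without NaCr replicate 2 (adjusted p up to 0.0547 and 0.0843, the second also without siRNA replicate 1) and Cenpf without either NaCr library or siRNA replicate 2 (up to 0.191).

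Transcript length moved with the direction of change. The length implied by the ratio of CPM to the deposited FPKM had a median of 2.27 kb among genes that were higher, 4.46 kb among genes that were lower and 2.79 kb among all genes with a value. Of genes at 10 CPM or more, cut into 4 equal bins by length, 23.6% were higher and 3.34% lower in the shortest bin, against 8.21% higher and 19.5% lower in the longest. The median log2 fold change was 0.46, 0.32, 0.11 and -0.29 from the shortest bin to the longest. Cytosolic ribosomal proteins are short, and 71 of them were in the shortest bin, where their median was 0.94 against 0.44 for the other genes. Pluripotency factors, spread over the bins with 4 to 6 genes in each, had medians from 1.12 to 1.43 in every bin. The part of transcript length in the results was not tested further.

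Among 24 lysine acyltransferases 1 rose (4.17%) and 2 fell (8.33%), against 8.77% and 6.55% over all genes tested. Their median was -0.01, and on FPKM none rose and 7 fell. The rise was Kat5 (Tip60), the catalytic subunit of the NuA4 complex, with 31.3 and 37.5 CPM with NaCr, against 16.7 and 17.3 CPM with siRNA (1.01 ± 0.30, adjusted p = 0.0285). The falls were Jade3, a scaffold of the HBO1 complex (-1.39), and Atf2, a bZIP factor (-1.20). All 3 calls were lost without NaCr replicate 2 or siRNA replicate 1 and, for Kat5, without any of the 4 libraries (adjusted p up to 0.185, 0.142 and 0.138). Deacetylases rose in 3 (11.5%) and fell in 1 (3.85%) of 26, also near the shares over all genes (on FPKM 1 rose and 3 fell). Hdac1, which also removes crotonyl groups from histones, held 660.5 and 709 CPM with NaCr, against 312 and 322 CPM with siRNA and 563 and 546 CPM in controls (1.11 ± 0.17, adjusted p = 4.10e-04). The NuRD subunits Mta3 (1.35) and Mta2 (1.06; adjusted p up to 0.213 without NaCr replicate 2 or siRNA replicate 1) rose, and the deacetylase Sirt1 fell (-0.86, adjusted p = 0.0332; up to 0.226 without either NaCr library or siRNA replicate 1).

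Enzymes of crotonyl-CoA and fatty acid oxidation rose in 9 and fell in 2 of 39, with a median of 0.02 that was -0.07 with DESeq2 size factors and -0.36 on FPKM, where 3 rose and 7 fell. Slc25a20, the mitochondrial carrier of acylcarnitines, held 323 and 282 CPM with NaCr, against 143 and 132 CPM with siRNA and 364 and 394 CPM in controls (1.14 ± 0.18, adjusted p = 6.41e-04). Acadm, the medium-chain acyl-CoA dehydrogenase, held 607 and 629 CPM with NaCr, against 342 and 298 CPM with siRNA (0.95 ± 0.17, adjusted p = 0.00149). Hadh, a hydroxyacyl-CoA dehydrogenase, held 166 and 151 CPM with NaCr, against 52.8 and 61.5 CPM with siRNA (1.47 ± 0.28, adjusted p = 0.00183). All 3 stood clear of the siRNA libraries. The monocarboxylate transporter Slc16a1, which carries lactate and pyruvate, fell to 53.6 and 31.3 CPM with NaCr, against 102 and 75.2 CPM with siRNA and 103 and 89.7 CPM in controls (-1.05 ± 0.27, adjusted p = 0.0137). It was also lower than in controls (-1.17 ± 0.27, adjusted p = 0.0332), while siRNA alone was not shown to differ from controls (adjusted p = 0.754). Without NaCr replicate 2 or siRNA replicate 1 its call over siRNA was lost (adjusted p up to 0.206), and 6 enzymes rose without NaCr replicate 1.

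A list drawn up around proteins that bind or remove crotonyl-lysine had 16 tested genes, not all with that role. Of these, 3 rose and 2 fell, and on FPKM none rose and 4 fell. Elp3, the catalytic subunit of Elongator, held 45.3 and 43.1 CPM with NaCr, against 21.0 and 18.6 CPM with siRNA and 95.7 and 94.8 CPM in controls. It thus stood between siRNA (1.17 ± 0.27, adjusted p = 0.00653) and controls (-1.11 ± 0.26, adjusted p = 0.0372) without overlap. Cdyl2, a chromodomain protein, rose (1.48, adjusted p = 0.0182). Mllt3 (AF9), a YEATS-domain reader of acylated lysine, fell to 2.31 and 2.73 CPM with NaCr, against 11.4 and 12.4 CPM with siRNA and 3.28 and 1.60 CPM in controls (-2.26 ± 0.40, adjusted p = 0.00110), and the elongation scaffold Aff4 fell (-1.07). Cdyl2 lost its call without NaCr replicate 2 or either siRNA library (adjusted p up to 0.148), and Aff4 without NaCr replicate 2 or siRNA replicate 1 (0.115). Without NaCr replicate 2 or siRNA replicate 1, 1 gene of the list rose and 1 fell.

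Bromodomain genes, whose products read acetylated lysine, fell in 6 and rose in 3 of 33 (on FPKM 9 fell and none rose). Phip, which binds chromatin beside the insulin receptor substrate, fell to 36.6 and 28.8 CPM with NaCr, against 114 and 65.5 CPM with siRNA (-1.44 ± 0.25, adjusted p = 0.00110). Brdt, the testis BET protein, held 14.2 and 17.8 CPM with NaCr, against 60.8 and 33.4 CPM with siRNA and 6.21 and 4.69 CPM in controls. It was lower than with siRNA (-1.54 ± 0.30, adjusted p = 0.00215) and higher than in controls (1.54 ± 0.31, adjusted p = 0.0148). Cecr2 (1.07) and Baz1a (0.93), subunits of ISWI remodellers, rose. Without NaCr replicate 2, 2 fell and 1 rose, and Baz1a was among those lost (adjusted p = 0.0594).

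DNA methylation genes fell in 6 and rose in 2 of 17 (median -0.87). The methylcytosine dioxygenases moved in opposite directions. Tet2 held 49.7 and 38.9 CPM with NaCr, against 13.5 and 12.9 CPM with siRNA and 126 and 113 CPM in controls, a rise over siRNA (1.75 ± 0.26, adjusted p = 4.24e-04) that stayed under controls (-1.43 ± 0.25, adjusted p = 0.00656). Tet3 fell to 5.02 and 3.61 CPM with NaCr, against 9.02 and 14.003 CPM with siRNA and 5.95 and 5.62 CPM in controls (-1.44 ± 0.28, adjusted p = 0.00236). The stress-inducible demethylation factor Gadd45b fell to 5.74 and 11.8 CPM with NaCr, against 69.5 and 71.0 CPM with siRNA and 12.3 and 14.006 CPM in controls (-3.02 ± 0.65, adjusted p = 0.00438), and Uhrf2 fell (-1.41). Tet3 lost its call without siRNA replicate 2 (0.0618), Gadd45b without NaCr replicate 1 (0.0666) and Uhrf2 without either NaCr library or siRNA replicate 1 (up to 0.189); with NaCr replicate 1 or 2 left out 3 or 2 genes fell, and with siRNA replicate 1 or 2 left out 4 or 3. Histone methyltransferases and demethylases rose in 9 and fell in 4 of 45 (on FPKM 2 rose and 10 fell), with Smyd5 (1.61), the Polycomb-associated Kdm2b (1.14) and the arginine methyltransferase Prmt5 (1.17) higher and Kdm2a, the paralogue of Kdm2b, lower (-1.79; adjusted p up to 0.0608 without NaCr replicate 2 or siRNA replicate 2). Without NaCr replicate 2, 5 rose and none fell, and without siRNA replicates 1 and 2, 8 and 6 rose and 1 and 4 fell.

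Genes of the unfolded protein and integrated stress responses were lower with NaCr in 9 of 36 and higher in 2 (median -0.39). The endoplasmic reticulum chaperone Hspa5 (BiP) held 368 and 297 CPM with NaCr, against 879 and 879 CPM with siRNA and 294 and 322 CPM in controls (-1.402 ± 0.22, adjusted p = 5.12e-04). Its co-chaperone Dnajc3 held 86.6 and 82.3 CPM with NaCr, against 224 and 188 CPM with siRNA and 69.6 and 75.4 CPM in controls (-1.28 ± 0.22, adjusted p = 8.48e-04). NaCr libraries lay at the control level for both genes. The amino acid transporter heavy chain Slc3a2, an Atf4 target, fell (-1.14), whereas the serine synthesis enzyme Psat1, also an Atf4 target, rose (1.24 ± 0.22, adjusted p = 0.00110). Without a library the falls numbered 5, 3 and 6 (NaCr replicate 1, NaCr replicate 2, siRNA replicate 1).

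Targets of p53 and apoptosis genes fell in 6 and rose in 3 of 38 (median -0.32). Tigar, a fructose bisphosphatase under p53 control, held 1067 and 1166 CPM with NaCr, against 338 and 400.0 CPM with siRNA and 861 and 776 CPM in controls (1.60 ± 0.20, adjusted p = 1.31e-04). The executioner caspase Casp6 rose (1.26), while the pro-apoptotic BH3-only gene Bcl2l11 (Bim) fell to 17.4 and 16.7 CPM with NaCr, against 43.8 and 58.0 CPM with siRNA and 20.9 and 26.9 CPM in controls (-1.58 ± 0.28, adjusted p = 0.00122). The ribonucleotide reductase subunit Rrm2b fell (-1.38). Casp6 and Rrm2b lost their calls without NaCr replicate 2 (adjusted p up to 0.0828 and 0.0868), where 1 gene of the list rose and 1 fell; 3 and 4 fell without NaCr replicate 1 and siRNA replicate 1.

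In metabolism, glycolysis and pentose phosphate genes fell in 6 and rose in 3 of 30 (median -0.46). Slc2a3, the glucose transporter GLUT3, rose to 268 and 229 CPM with NaCr, against 96.0 and 49.3 CPM with siRNA and 181 and 157 CPM in controls (1.79 ± 0.28, adjusted p = 5.38e-04). The pentose phosphate enzymes Taldo1 (1.18) and Pgd (0.97) rose. Ldhb, a lactate dehydrogenase subunit, fell to 20.8 and 14.05 CPM with NaCr, against 67.4 and 94.96 CPM with siRNA and 2.87 and 5.62 CPM in controls. It was lower than with siRNA (-2.22 ± 0.36, adjusted p = 7.30e-04) and remained above controls (2.05 ± 0.38, adjusted p = 0.00983). Pgd lost its call without siRNA replicate 1 (adjusted p = 0.0627), and the falls numbered 2, 1, 3 and 4 without NaCr replicates 1 and 2 and siRNA replicates 1 and 2.

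Cholesterol and fatty acid synthesis genes rose in 4 (11.1%) and fell in 2 (5.56%) of 36, near the 8.77% and 6.55% over all genes tested. Their median was -0.05, whereas on FPKM 1 rose and 5 fell. Fdps, farnesyl diphosphate synthase, held 1477 and 1941 CPM with NaCr, against 447 and 786 CPM with siRNA and 414 and 441 CPM in controls, and was higher than siRNA (1.47 ± 0.32, adjusted p = 0.00508) and controls (1.999 ± 0.33, adjusted p = 0.00429). Fdft1, squalene synthase, held 870.2 and 1082 CPM with NaCr, against 472 and 396 CPM with siRNA and 513 and 462 CPM in controls, and was likewise higher than siRNA (1.17 ± 0.22, adjusted p = 0.00156) and controls (1.002 ± 0.21, adjusted p = 0.0206). For these enzymes the NaCr libraries exceeded every siRNA and control library. The elongase Elovl6 rose over siRNA (1.34) and the isomerase Idi1 fell (-1.37). Fdps lost its call over siRNA without NaCr replicate 2 or siRNA replicate 1 (adjusted p up to 0.0700) and Idi1 without NaCr replicate 2 (0.107); 2 genes of the list rose and none fell without NaCr replicate 2.

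Oxidative stress and metallothionein genes rose in 5 (12.5%) and fell in 3 (7.5%) of 40, near the 8.77% and 6.55% over all genes tested. Their median was -0.21, whereas on FPKM none rose, 12 fell and the median was -0.56. Gstm1, a glutathione transferase, fell to 21.2 and 12.9 CPM with NaCr, against 107 and 72.4 CPM with siRNA and 3.34 and 1.87 CPM in controls. Its 3 levels did not overlap, -2.38 ± 0.47 relative to siRNA (adjusted p = 0.00269) and 2.71 ± 0.50 relative to controls (adjusted p = 0.00918). Peroxiredoxin Prdx1 (-0.63) fell, and mitochondrial Prdx5 (0.80) and superoxide dismutase Sod2 (0.90) rose. Amino acid transporters fell in 4 and rose in 2 of 27 (median -0.85). The glutamate and aspartate carrier Slc1a1 held 639 and 679 CPM with NaCr, against 211 and 177 CPM with siRNA and 493 and 547 CPM in controls (1.76 ± 0.28, adjusted p = 5.38e-04); Slc7a6 (0.95) rose and Slc43a2 (-2.84) fell. Single libraries decided several of these calls: Gstm1 (adjusted p up to 0.0589), Slc7a6 (0.0659), Slc43a2 (0.153) and Prdx1 (0.155) without NaCr replicate 2 among others, and Prdx5 (0.0631) and Sod2 (0.0717) without NaCr replicate 1. In the oxidative stress list 1, 3, 1 and 8 rose without NaCr replicates 1 and 2 and siRNA replicates 1 and 2, and 1 amino acid transporter fell without NaCr replicate 1, NaCr replicate 2 or siRNA replicate 2.

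Maternal oocyte transcripts were lower with NaCr in 12 of 56 and higher in 3, with a median of -1.16. Cpeb1, which controls polyadenylation in oocytes, fell to 5.48 and 1.74 CPM with NaCr, against 14.9 and 14.2 CPM with siRNA and 2.62 and 4.91 CPM in controls (-1.95 ± 0.42, adjusted p = 0.00427). The deadenylase subunit Cnot6l fell to 12.2 and 10.2 CPM with NaCr, against 45.4 and 29.8 CPM with siRNA and 18.9 and 13.3 CPM in controls (-1.72 ± 0.38, adjusted p = 0.00536). Khdc3 (Filia), of the subcortical maternal complex, instead rose to 1044 and 1111 CPM with NaCr, against 146 and 307 CPM with siRNA and 756 and 814 CPM in controls (2.24 ± 0.38, adjusted p = 8.71e-04), as did Dppa3. Without NaCr replicate 2 none of the list fell, and 5, 7 and 6 fell without NaCr replicate 1, siRNA replicate 1 and siRNA replicate 2. Cpeb1 and Cnot6l were lost without NaCr replicate 2 (adjusted p up to 0.0691 and 0.0679), and Cnot6l also without siRNA replicate 1.

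Genes first transcribed around the 2-cell stage rose in 5 (12.8%) and fell in 3 (7.69%) of 39, against 8.77% and 6.55% over all genes tested. Their median was 0.29, and without NaCr replicate 2 it was -1.46. On FPKM 2 rose, 3 fell and the median was -0.15. The Prame-like genes Pramel6, Pramel5 and Pramel7, which lie among close copies and are uncertain for that reason, rose together. Pramel6 held 2082 and 2006 CPM with NaCr, against 516 and 501 CPM with siRNA and 1799.9 and 1934 CPM in controls (2.01 ± 0.22, adjusted p = 5.04e-05). Pramel5 held 472 and 458 CPM with NaCr, against 132 and 111 CPM with siRNA and 1049 and 1118 CPM in controls, above siRNA (1.94 ± 0.21, adjusted p = 5.74e-05) and below controls (-1.22 ± 0.21, adjusted p = 0.00504). Both were tightly replicated, but only Pramel6 reached the control range. Arg2, mitochondrial arginase, fell to 3.23 and 4.35 CPM with NaCr, against 33.2 and 20.9 CPM with siRNA and 1.23 and 3.31 CPM in controls (-2.83 ± 0.49, adjusted p = 9.55e-04). Without NaCr replicate 1, 6 genes of the list rose and 1 fell, and without NaCr replicate 2, 3 rose and 3 fell.

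Germline and cancer-testis genes fell in 6 and rose in 1 of 45 (median -0.62). Tex11, a meiotic crossover gene, held 12.3 and 22.3 CPM with NaCr, against 62.9 and 41.9 CPM with siRNA and 6.62 and 7.55 CPM in controls (-1.60 ± 0.29 over siRNA, adjusted p = 0.00141; 1.27 ± 0.29 over controls, adjusted p = 0.0338). Hormad1, of the meiotic chromosome axis, held 39.5 and 42.6 CPM with NaCr, against 107 and 100.1 CPM with siRNA and 11.96 and 15.4 CPM in controls (-1.34 ± 0.29, adjusted p = 0.00501; 1.58 ± 0.30 over controls, adjusted p = 0.0102). With Brdt, these genes stood between siRNA and controls in every library. The synaptonemal complex gene Syce2 was the rise (0.72, adjusted p = 0.0438), and it was lost without 3 of the 4 libraries (up to 0.299), with DESeq2 size factors and with other alternatives; Hormad1 was lost without NaCr replicate 1 (0.0522).

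Imprinted genes fell in 8 and rose in 2 of 41 (median -0.90). Zdbf2, a paternally expressed gene, fell to 22.04 and 10.6 CPM with NaCr, against 100.3 and 83.9 CPM with siRNA and 14.2 and 17.6 CPM in controls (-2.48 ± 0.38, adjusted p = 4.54e-04). Sfmbt2, host of a microRNA cluster and paternally expressed in extraembryonic tissue, fell (-1.97 ± 0.37, adjusted p = 0.00171), as did the paternally expressed zinc finger gene Peg3 (-2.82). Sgce, which neighbours Peg10, rose to 59.6 and 64.3 CPM with NaCr, against 21.0 and 20.7 CPM with siRNA and 33.7 and 35.8 CPM in controls (1.57 ± 0.36, adjusted p = 0.00665). Falls numbered 3, 2, 5 and 5 without NaCr replicates 1 and 2 and siRNA replicates 1 and 2, and Peg3 and Sgce were lost without NaCr replicate 2 (adjusted p = 0.0600 and 0.0505).

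Signalling genes of the FGF, BMP, Nodal and JAK-STAT pathways rose in 6 and fell in 8 of 46 (median -0.37; on FPKM 1 rose and 12 fell). Id3, an inhibitor of basic helix-loop-helix factors and a BMP target, held 97.2 and 152 CPM with NaCr, against 29.5 and 28.7 CPM with siRNA and 137 and 158 CPM in controls (2.10 ± 0.30, adjusted p = 3.19e-04). Its relative Id4 moved the other way, to 0.396 and 0 CPM with NaCr, against 6.63 and 2.45 CPM with siRNA and 0.257 and 0.165 CPM in controls (-4.14 ± 0.91, adjusted p = 0.00504; 0.0626 without NaCr replicate 2). The kinase Pim1, a STAT target, rose (1.84) and the cytokine receptor kinase Jak2 fell (-1.64). Of the list, 3, 2, 2 and 6 rose and 4, 2, 4 and 6 fell without NaCr replicates 1 and 2 and siRNA replicates 1 and 2.

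Interferon response and innate sensing genes rose in 3 (8.57%) and fell in 4 (11.4%) of 35 (median -0.22), against 8.77% and 6.55% over all genes tested. Irf1, an interferon-induced transcription factor, held 4.03 and 0.995 CPM with NaCr, against 14.9 and 21.2 CPM with siRNA and 0.513 and 0.110 CPM in controls (-2.78 ± 0.52, adjusted p = 0.00169; 3.02 ± 0.62 over controls, adjusted p = 0.0179). B2m, the light chain of MHC class I, held 113 and 100.3 CPM with NaCr, against 182 and 235 CPM with siRNA and 63.3 and 70.5 CPM in controls (-0.97 ± 0.20, adjusted p = 0.00296; 0.0546 without NaCr replicate 2). Nlrc5, the activator of MHC class I genes, had no count in the NaCr libraries and 96 counts in the siRNA libraries, at least 20.4-fold lower against a floor of 3 counts over the group, and lost its call without either NaCr library or siRNA replicate 2 (up to 0.110). Without NaCr replicates 1 and 2 and siRNA replicates 1 and 2, 1, 2, 1 and 1 of the interferon list rose and 2, 1, 3 and 2 fell. Tetraspanins rose in 2 (8.7%) and fell in 3 (13%) of 23, against 8.77% and 6.55% over all genes tested. Cd9, known from gamete fusion, rose to 1782 and 1591 CPM with NaCr, against 539.9 and 613 CPM with siRNA (1.55 ± 0.26, adjusted p = 8.60e-04). Cd63 (0.96) also rose, while Tspan3 (-2.04) and Tspan13 (-1.73) fell, and both falls lost their calls without NaCr replicate 2. Of 36 replication-dependent histone genes none rose and 1 (2.78%) fell. It was H2ac6, with 1 count in the NaCr libraries against 94 in the siRNA libraries, and its call was lost without any single library.

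**Figure D3:**
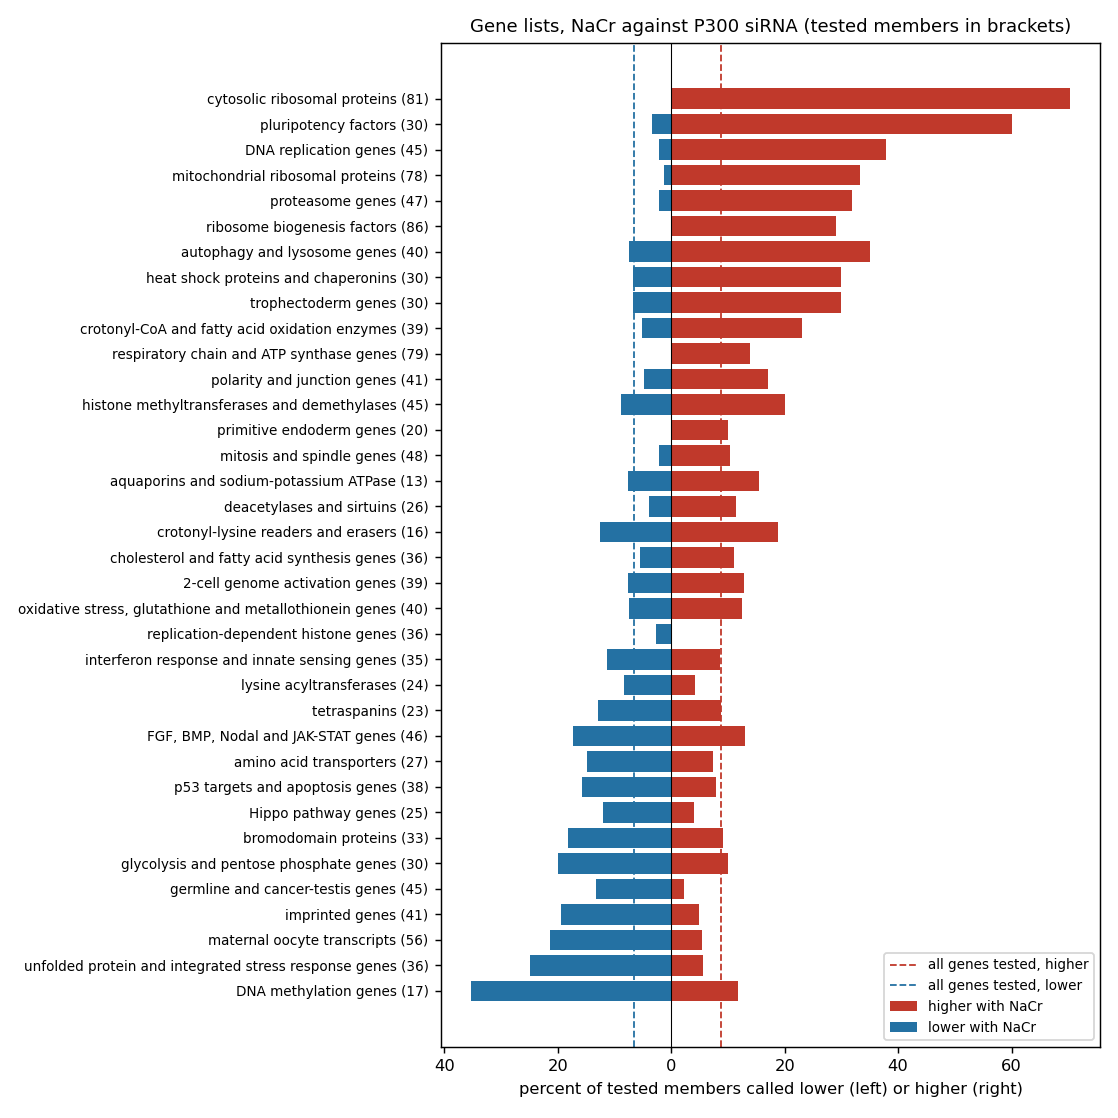
Percent of tested members called higher (red, right) and lower (blue, left) with NaCr relative to P300 siRNA in 36 gene lists, with the number of tested members in brackets, ordered by the difference. Dashed lines give the shares over all genes tested, 8.77% higher and 6.55% lower; cytosolic ribosomal proteins and pluripotency factors lie at the top and DNA methylation genes at the bottom.

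Promoters are shown to describe the sequence around genes that moved in opposite directions. RefSeq promoter sequences of build GRCm38.p6, cut to the 250 bases before the start site, were found for 1148 genes called higher, 860 called lower and 13036 tested. The motifs searched on both strands, overlaps allowed, were the TATA box (TATAAA), the CCAAT box (CCAAT), the GC box (GGGCGG), the octamer (ATTTGCAT), the E-box (CACGTG), an ETS site (CCGGAAG), a TEAD site (GGAATG) and an AP-1 site (TGANTCA). Capitals in the sequences mark these motifs. Rps6 and Cdx2 were higher with NaCr, and Taf9b was lower.
Rps6, chr4:86857368-86857617, minus strand: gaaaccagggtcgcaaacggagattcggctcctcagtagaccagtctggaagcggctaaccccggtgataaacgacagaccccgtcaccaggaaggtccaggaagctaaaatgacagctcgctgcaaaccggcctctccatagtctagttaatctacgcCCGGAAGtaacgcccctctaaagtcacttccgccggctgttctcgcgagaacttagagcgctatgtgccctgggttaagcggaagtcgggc
Cdx2, chr5:147307250-147307499, minus strand: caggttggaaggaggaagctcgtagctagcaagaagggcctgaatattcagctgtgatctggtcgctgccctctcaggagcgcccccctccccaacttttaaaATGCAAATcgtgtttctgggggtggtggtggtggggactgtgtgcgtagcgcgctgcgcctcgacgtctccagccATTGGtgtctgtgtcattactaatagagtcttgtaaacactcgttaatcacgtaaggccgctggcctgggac
Taf9b, chrX:106221159-106221408, minus strand: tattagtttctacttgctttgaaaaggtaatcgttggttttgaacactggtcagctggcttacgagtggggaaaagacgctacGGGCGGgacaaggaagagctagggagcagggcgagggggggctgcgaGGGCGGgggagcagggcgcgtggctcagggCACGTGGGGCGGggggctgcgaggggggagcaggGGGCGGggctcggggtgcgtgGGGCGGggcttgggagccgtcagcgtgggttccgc
The Rps6 window holds 1 ETS site, the Cdx2 window an octamer and a CCAAT box on the other strand, and the Taf9b window a run of GC boxes, 1 of them adjoining an E-box. Promoters of genes called lower held a median of 19 CpG and, in 69.7%, a GC box, against a median of 15 CpG and 55.2% for genes called higher and 14 CpG and 53.8% for all tested genes. An ETS site stood in 17.5% of promoters of genes called higher, against 11.9% of those called lower and 12.01% of all, and in 30.0% of 60 ribosomal protein promoters. The octamer stood in 0.958% of promoters called higher, against 1.86% of those called lower and 1.46% of all, and the CCAAT box in 37.6%, against 43.8% and 36.8%. The E-box stood in 8.54%, against 10.2% and 8.07%. Such a match is a description of letters and not a site of binding.

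Genes of the X chromosome leaned to one side, a grouping added after the values were seen. Of the 15 largest falls chosen by the rule, 7 are X-linked: Cypt2, Gpr50, Pwwp3b, Zfp711, Amer1, Taf9b and Pramel3. By RefSeq gene symbols, 684 tested genes are on the X, and 87 of them (12.7%) were lower with NaCr and 29 (4.24%) higher, against 6.27% lower and 8.96% higher of 15889 autosomal genes. The median log2 fold change was -0.66 on the X and -0.12 on the autosomes, where it ranged from -0.39 to 0 by chromosome and the share lower from 4.13% to 12.2%. Over controls the X median was 0.68 with siRNA (173 genes higher, 41 lower) and 0.02 with NaCr (15 higher, 2 lower). At the early 8-cell stage it was 0.57 for siRNA over control (118 higher, 26 lower). Autosomal medians in these comparisons were 0.04, -0.05 and 0.02. The autosome nearest the X was chromosome 18, with 12.2% lower. Within the bins by transcript length, the X median was -0.15, -0.20, -0.66 and -0.41 from the shortest to the longest, against 0.47, 0.35, 0.12 and -0.29 for autosomal genes, so that the X was lower in each.

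X-linked transcripts made up 4.41% and 4.16% of all CPM in the NaCr libraries, against 5.41% and 4.45% in the siRNA libraries and 4.16% and 3.84% in controls. The I1394G libraries held 4.84% and 4.60%, both above siRNA replicate 2, which itself lay close to NaCr replicate 1. Xist, the RNA that silences the X, held 93.1 and 127 CPM with NaCr, against 69.8 and 53.2 CPM with siRNA and 276 and 139.9 CPM in controls, and the difference from siRNA did not pass the test (adjusted p = 0.564). Both NaCr libraries were above both siRNA libraries and below both controls. The Y-linked zinc finger gene Zfy2, whose family is close in sequence to X-linked Zfx, fell to 5.61 and 3.36 CPM with NaCr, against 31.3 and 22.8 CPM with siRNA and 2.0015 and 4.14 CPM in controls (-2.57 ± 0.69, adjusted p = 0.0173; up to 0.163 without either NaCr library or siRNA replicate 1). The Y-linked translation factor Eif2s3y held 115 and 93.6 CPM with NaCr, against 162 and 127 CPM with siRNA and 45.0 and 97.0 CPM in controls. Its siRNA libraries were the highest, and the share of male embryos per library is not given in the labels, so the part of the sex ratio in these results was not tested.

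**Figure D4:**
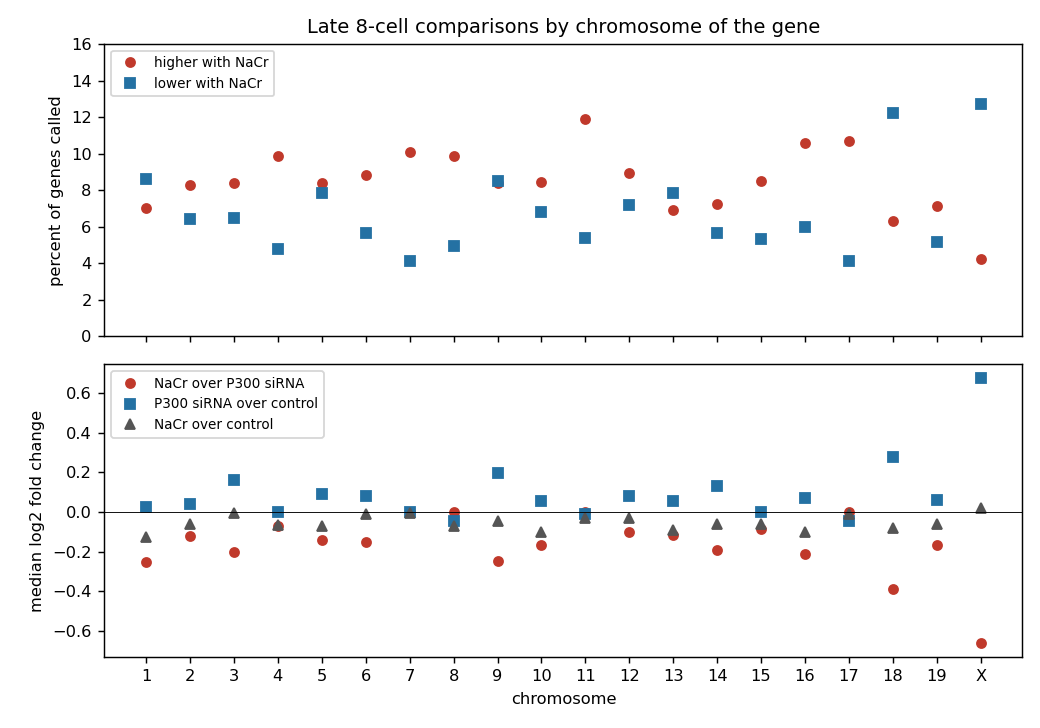
Upper panel, percent of tested genes on each autosome and the X called higher (circles) and lower (squares) with NaCr relative to P300 siRNA; lower panel, median log2 fold change per chromosome in 3 late 8-cell comparisons. Of the chromosomes plotted, the X has the highest share lower, 12.7%, and the lowest median, -0.66, and chromosome 18 comes next at 12.2% and -0.39; the Y, with 9 tested genes of which 2 (22.2%) were lower and a median of -0.93, is not plotted.

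How genes that had moved in other libraries stood in this comparison was described with lists from embryos that share no library with it. Lists and calls came from 1 fit of all 20 libraries, with a shared filter, scaling and spread per gene. The called shares are therefore not independent of how the lists were made. The lists rest on counts of the early 8-cell controls, where the counts and FPKM of replicate 2 disagree. At the early 8-cell stage, 1378 tested genes (8.30%) were lower in P300 siRNA than in control embryos and 1363 (8.21%) were higher. In the comparison of NaCr with siRNA, 8.77% of all genes tested were higher and 6.55% lower. Of those lower at the early 8-cell stage, 533 (38.7%) were higher with NaCr at the late 8-cell stage and 29 (2.10%) lower. Their median was 0.70, and on FPKM 167 were higher and 85 lower, with a median of 0.22. Of those higher at the early 8-cell stage, 27 (1.98%) were higher with NaCr and 266 (19.5%) lower, with a median of -0.64; on FPKM 8 were higher and 464 lower. Controls offered a second pair of lists: 2020 genes (12.2%) were at least 2-fold higher at the late than at the early 8-cell stage and 1410 (8.49%) at least 2-fold lower. With NaCr, 313 (15.5%) of the genes that rise in controls were higher than with siRNA and 43 (2.13%) lower (median 0.31; on FPKM 168 were higher, 190 lower and the median was -0.07), while 66 (4.68%) of those that fall in controls were higher and 286 (20.3%) lower (median -0.49). Without a single library the 533 rises numbered 320 to 432, the 266 falls 75 to 172, the 313 rises 171 to 250 and the 286 falls 116 to 228, lowest in each case without NaCr replicate 2.

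**Figure D5:**
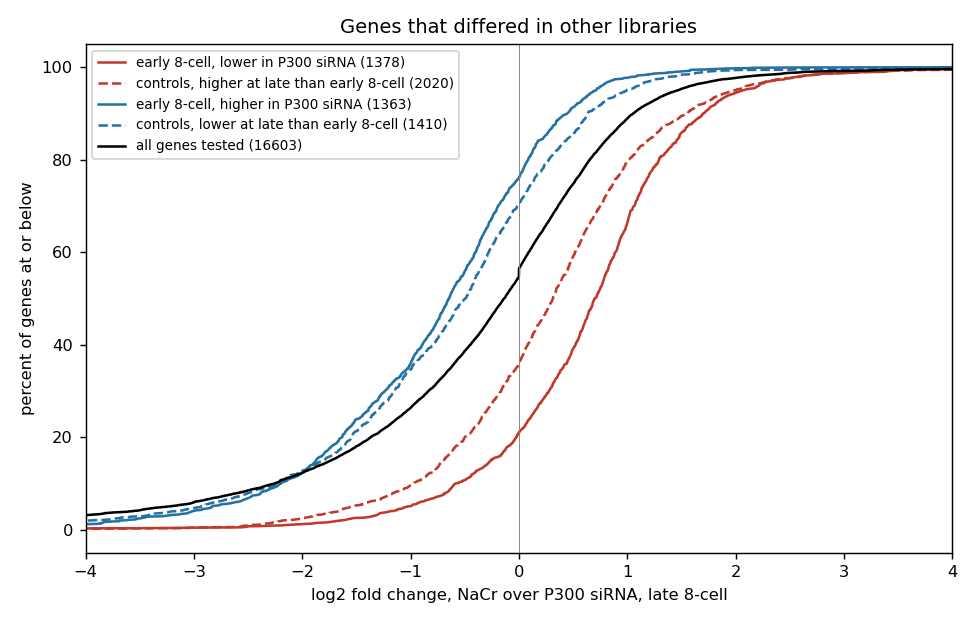
Cumulative percent of genes (vertical axis) by log2 fold change of NaCr over P300 siRNA at the late 8-cell stage (horizontal axis) for 4 lists taken from other libraries and for all 16603 genes tested. Genes lower in early 8-cell P300 siRNA embryos (solid red, median 0.70) lie to the right of all genes, and genes higher there (solid blue, median -0.64) to the left.

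The distance of both groups from controls can be set side by side, bearing in mind that these comparisons share the NaCr, siRNA or control libraries with each other. NaCr embryos differed from controls in 261 genes, 1.57% of those tested, with 178 higher and 83 lower. siRNA embryos differed from controls in 4645 genes, 28%, with 2266 higher and 2379 lower. For pluripotency factors, 1 was higher and 2 lower in NaCr than in control embryos, with a median of -0.36, and 2 were higher and 17 lower in siRNA than in control embryos, with a median of -1.32. For cytosolic ribosomal proteins the counts were 0 higher and 0 lower with NaCr (median 0.02), against 0 higher and 55 lower with siRNA (median -0.87). For trophectoderm genes they were 0 and 2 with NaCr (median -0.64), against 5 and 14 with siRNA (median -0.67). For imprinted genes they were 5 and 0 with NaCr (median 0.28), against 17 and 1 with siRNA (median 1.51), and for p53 targets 7 and 0 with NaCr (median 0.50), against 18 and 3 with siRNA (median 1.08). The count against controls is sensitive: without NaCr replicates 1 and 2 it was 113 and 66 genes, without control replicates 1 and 2 it was 12 and 36 genes, and fitted on the 4 libraries alone it was 2263 genes.

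Between the rescue groups no gene passed: NaCr against I1394G gave 0 of 16603 genes by edgeR's quasi-likelihood test and 0 by the DESeq2 Wald test, with 323 and 354 genes at an unadjusted p under 0.05. Nanog shows the size of difference that this leaves uncalled, with 769.7 and 822 CPM with NaCr, against 406 and 403 CPM with I1394G. Cdx2 held 5.28 and 3.36 CPM with NaCr, against 1.28 and 1.89 CPM with I1394G. In both genes the NaCr libraries lay above the I1394G libraries without overlap, and the groups are not shown to act alike.

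The summed levels of markers of other cell types differed in direction between lists. Neural markers summed to 41.8 and 34.8 CPM with NaCr, against 81.2 and 132.6 CPM with siRNA and 14.8 and 12.96 CPM in controls; 1 of 11 tested members, the intermediate filament gene Nes, fell (-2.01, adjusted p = 0.0473; up to 0.319 without any single library) and none rose. Fibroblast markers summed to 8.65 and 8.83 CPM with NaCr, against 17.8 and 22.5 CPM with siRNA and 8.67 and 9.87 CPM in controls, with Fbn1 the 1 of 14 that fell (1 count with NaCr against 111 with siRNA; adjusted p up to 0.248 without any single library). Blood markers summed to 35.8 and 41.0 CPM with NaCr, against 52.5 and 58.8 CPM with siRNA and 11.1 and 11.6 CPM in controls, and most of it was the endosomal glycoprotein Cd68, with 30.4 and 35.9 CPM with NaCr, against 44.8 and 47.6 CPM with siRNA and 7.39 and 6.89 CPM in controls. Cumulus markers summed to 56.4 and 76.1 CPM with NaCr, against 46.2 and 59.7 CPM with siRNA and 34.2 and 27.0 CPM in controls, led by Amhr2, which rose (1.28; lost without NaCr replicate 2, adjusted p = 0.0720), while Kitl (-3.33) and Tnfaip6 (-4.58; up to 0.162 without either NaCr library or siRNA replicate 2) fell. Of 20 cumulus markers 7 had no count with NaCr and 3 none with siRNA, and of 20 blood markers 11 had none with NaCr and 6 none with siRNA. Oviduct markers summed to 246.8 and 151 CPM with NaCr, against 322 and 238.5 CPM with siRNA and 239 and 342 CPM in controls, led by the adhesion molecule Epcam, and none of 9 tested passed. Sperm markers summed to 40.5 and 42.8 CPM with NaCr, against 68.2 and 62.3 CPM with siRNA and 32.9 and 31.4 CPM in controls, and 1 of 6 fell. Epiblast markers summed to 108.6 and 85.0 CPM with NaCr, against 91.3 and 109.7 CPM with siRNA and 195 and 202 CPM in controls, with none of 15 tested higher and 1 lower. Placental trophoblast markers summed to 79.9 and 126.7 CPM with NaCr, against 74.3 and 108 CPM with siRNA and 123 and 91.6 CPM in controls, with 1 of 10 higher and 2 lower. The neural, fibroblast, blood and sperm sums were lower in both NaCr libraries than in both siRNA libraries, and the other sums overlapped between these groups. The part of these markers in the result was not tested.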

How the data were processed

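Raw counts per gene were deposited by the authors without normalisation, and FPKM values were deposited by the authors beside them; the submitters' processing notes name HISAT2 2.2.1, Cufflinks 2.2, cutadapt 4.1, bcl2fastq 2.20.0.422 and build mm9. The counter and strand setting were not given in the sources used here, so reads of antisense or overlapping genes may be counted together. Libraries were grouped by title. In R 4.3.3, edgeR 4.0.16 fitted 1 coefficient per group to all 20 libraries after TMM scaling and filterByExpr (10 residual, 7.98 prior degrees of freedom), and contrasts were tested two-sided with the quasi-likelihood F test and Benjamini-Hochberg adjustment over 16603 genes. SEs of log2 fold changes follow from the F statistic (absolute change over its square root). Within the NaCr, siRNA, I1394G and control groups of the late 8-cell stage, no library was found to duplicate the other. Groups of other stages were not checked for duplicates. The fit was tested on simulated data. Total counts of 3202332 to 24785201 set the precision; counting intervals are 95% exact and, like the floor of 3 counts, cover counting error only.

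Named genes were Ep300, then the 15 largest rises and 15 largest falls that passed with no overlap and a mean of 10 CPM or more in the higher group (of 1369 and 708 that qualified; unnamed gene models left out), then up to 4 called members per list by adjusted p, or the most abundant where none passed; Cdx2, Nanog, Pou5f1 and Sox2 were always given, and some of the genes so chosen are not reported here. Xist and Eif2s3y were named after their values were seen. The members and lists were chosen with earlier results of these data known. Alternatives were DESeq2 1.42.0 (Wald test, or its size factors in edgeR), no filter, limma 3.58.1 on log2(FPKM + 1) or log2(FPKM + 0.1) (genes reaching 1 FPKM in 2 or more libraries), edgeR against a log2 fold change of 1, fits on fewer libraries, a replicate block and each library left out. Promoters and chromosomes came from RefSeq GRCm38.p6, matched by symbol (16582 genes), and no coordinate was carried over from mm9. The FPKM column of control early 8-cell replicate 2 did not follow its counts (correlation of log2 values 0.633, at least 0.973 in the other 19 libraries). Which of these columns is at fault is not known. FPKM entered only as an alternative and through the implied transcript length. The counts of this library entered the main fit and the lists that use early 8-cell controls.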

Additional observations from a re-analysis of the deposited data

How the results depend on the processing

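For NaCr against siRNA, none of the 2544 calls changed sign under any alternative except 3 without siRNA replicate 2, and no named gene did. The total moved to 139 genes (56 higher, 83 lower) with a minimum log2 fold change of 1 and to 4356 (2311 and 2045) with late 8-cell libraries alone; DESeq2's Wald test gave 1760 lower, limma 462 higher and 2560 lower on log2(FPKM + 1), and 366 and 2156 on log2(FPKM + 0.1). Single libraries left out gave 912 to 2282 genes, 640 to 1458 higher and 272 to 824 lower. Size factors of DESeq2 gave 48% higher. Of 174 named called genes, 47 were lost on log2(FPKM + 1), 44 and 64 without NaCr replicates 1 and 2, and 38 and 30 without siRNA replicates 1 and 2. NaCr against controls gave 728 genes with DESeq2, 793 without a filter, 147 and 101 on FPKM with pseudocounts of 1 and 0.1, 28 with a minimum fold, 2263 on the libraries compared, 989 on late 8-cell libraries, 140 thinned to equal depth (added after seeing the data) and 12 to 113 with a library left out. siRNA against controls gave 1174 with a minimum fold and 2215 to 3423 with a library left out. NaCr against I1394G gave 20 without a filter, 2 on the libraries compared and 0 to 1 with a library left out. The cause of these shifts was not tested. Replicate numbers were not seen to pair the NaCr and siRNA libraries, whose same-numbered deviations correlated at 0.00756. Of 45 pairs of groups 2 exceeded 0.1: P300 siRNA 4-cell with early 8-cell (0.418), and control with P300 siRNA at the 4-cell stage (0.14). With a replicate block 2555 genes were called (1478 higher, 1077 lower), and 2 named calls, Syce2 and Nes, were lost; the block gave 268, 4565 and 0 genes in the other comparisons. With late 8-cell libraries thinned to equal depth, 1147 genes were higher and 839 lower, so depth limits calls in both directions.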
